A study of Mus musculus with 51 samples.

Results

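The genes described here are 5 transcripts of the proximal tubule, the nephron segment that takes back most of what the kidney filters: Gatm, Miox, Ass1, Ttc36 and Spp2. They were chosen by name for their roles in creatine, inositol and arginine metabolism and as products of this segment, not by their measured values, and they are 5 of the 16099 genes in the deposited expression table. Of these, 14426 had a mean of at least 10 and were tested, all 5 among them. RNA was measured in whole fetal kidneys of C57BL/6 mice labelled wild type, with poly-A enrichment and Illumina sequencing, in 51 libraries at 13 time points that lie 4 h apart from CT0 to CT48. Each time point had 4 libraries, apart from CT20 with 3. The labels place CT0 at E18, CT24 at E19 and CT48 at E20 (embryonic days), while the design text names E20.5 as the last age. No treatment, genotype other than wild type, dam or litter is named, so p-values measure the spread between these samples, and a time point cannot be told apart from a litter taken at that time.

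Gatm (glycine amidinotransferase) moves the amidino group of arginine onto glycine, which gives guanidinoacetate, the precursor of creatine. Much of that step takes place in the proximal tubule, and the liver then methylates guanidinoacetate to creatine. Miox (myo-inositol oxygenase) opens the inositol ring to glucuronate and is the entry step of the glucuronate-xylulose pathway. Ass1 (argininosuccinate synthase) joins citrulline and aspartate, and Asl then splits the product to arginine, which the mature proximal tubule supplies to the body. Ttc36 is a tetratricopeptide repeat protein abundant in liver and kidney. Spp2 (secreted phosphoprotein 2) is a secreted protein with a cystatin-like domain, known from bone matrix and plasma.

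The genes lie apart in the genome. By GENCODE M21 on GRCm38 (mm10), Gatm (ENSMUSG00000027199.14) is on the minus strand of chromosome 2, 122594467 to 122611303, with 9 exons in its first listed transcript. Ass1 (ENSMUSG00000076441.9), also on chromosome 2, spans 31470207 to 31520672 on the plus strand with 16 exons. Miox (ENSMUSG00000022613.8) is at chromosome 15, 89334398 to 89337015, plus strand, with 10 exons. Spp2 (ENSMUSG00000026295.12) is at chromosome 1, 88406961 to 88426438, plus strand, with 8 exons. Ttc36 (ENSMUSG00000039438.7) is at chromosome 9, 44799397 to 44803072, minus strand, with 3 exons. It is overlapped on the other strand by the antisense gene Gm48702, and the sources used here do not say whether counting was by strand, so Ttc36 is uncertain as a single gene.

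Promoter sequences are shown so that a reader can set the starts of the genes side by side. The genes shown are not the 4 that rose over the first day, as Ttc36 rose but is missing here, and Ass1 did not pass. RefSeq promoter windows of GRCm38.p6, from 250 bases before to 50 after the start, were found for 4 of the 5 genes, Ttc36 being the one without. The stretches printed end at the base before the earlier of the RefSeq and GENCODE starts and read 5′ to 3′ on the gene's strand. They cover chr2:122611304-122611527 (minus strand) for Gatm, chr15:89334223-89334397 (plus) for Miox, chr2:31470020-31470206 (plus) for Ass1 and chr1:88406760-88406960 (plus) for Spp2. Capitals mark 2 searched motifs, AGGTCA or its reverse complement TGACCT (the ROR and nuclear receptor half-site) and GTTAAT or its reverse complement ATTAAC (an HNF1 half-site).
Gatm: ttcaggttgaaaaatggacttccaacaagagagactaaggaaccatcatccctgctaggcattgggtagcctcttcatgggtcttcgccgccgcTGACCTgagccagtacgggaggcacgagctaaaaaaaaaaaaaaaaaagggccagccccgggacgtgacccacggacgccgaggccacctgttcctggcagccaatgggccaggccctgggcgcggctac
Miox: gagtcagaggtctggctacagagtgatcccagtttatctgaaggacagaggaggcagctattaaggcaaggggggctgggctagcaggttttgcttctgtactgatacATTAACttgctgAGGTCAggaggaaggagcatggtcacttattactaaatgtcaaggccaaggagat
Ass1: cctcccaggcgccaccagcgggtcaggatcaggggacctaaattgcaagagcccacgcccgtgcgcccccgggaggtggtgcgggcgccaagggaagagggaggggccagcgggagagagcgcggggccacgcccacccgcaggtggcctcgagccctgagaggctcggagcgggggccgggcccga
Spp2: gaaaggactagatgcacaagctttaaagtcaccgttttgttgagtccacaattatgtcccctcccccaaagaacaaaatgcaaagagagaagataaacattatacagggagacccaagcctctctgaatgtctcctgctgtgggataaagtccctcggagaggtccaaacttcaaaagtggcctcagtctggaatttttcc
The 4 stretches differ in base composition. That of Ass1 is 75.4% G or C with 18 CG dinucleotides in 187 bases, and that of Gatm 57.6% with 12 in 224. Spp2 has 44.8% with 2 in 201, and Miox 48.6% with 0 in 175. Before the RefSeq start but after the GENCODE start, Miox holds both a D-box match and a TATA box in 28 bases. The 28 bases are chr15:89334413-89334440, shown with both motifs in capitals (TTACATAA is TTATGTAA read on the other strand).
Miox site: agTTACATAAcctgtgcgcaTATAAAga
Ass1 holds an E-box CACGTG, the letters bound by clock and other bHLH factors, in 24 bases at chr2:31470225-31470248, with the E-box in capitals. These bases too lie before the RefSeq start and after the GENCODE start.
Ass1 site: gcccgtcccCACGTGtcccaggtt
Searched on both strands of the 300 bases, the E-box CACGTG was found in 7.09% of 27025 RefSeq promoters and a D-box (TTACGTAA, TTATGTAA or TTATATAA) in 1.63%. AGGTCA was found in 16.21%, GTTAAT in 7.25% and TATAAA in 14.14%. TTATATAA and TATAAA can overlap. In Spp2 a match to AGGTCA lies 37 bases after the RefSeq start, outside the stretch printed. These matches describe letters and were not tested against the expression values.

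Levels were compared between genes per kilobase of annotated exon length, using the normalised values of the deposited table averaged over the 51 libraries. Spp2 was highest with 11275 per kb, then Ttc36 with 7397, Gatm with 5713, Miox with 2197 and Ass1 with 24.6. This order held in 51 of 51 libraries for each neighbouring pair other than Ttc36 and Gatm. For that pair it held in 47, and Gatm was above Ttc36 in 1 library of CT32 and 3 of CT36. Without division by length, the mean value was 17146 for Gatm, 11184 for Spp2, 6791 for Ttc36, 3627 for Miox and 59.3 for Ass1. Gatm, Spp2 and Ttc36 stood at percentiles 98.66, 97.37 and 94.04 of all genes in the table, Miox at 84.58 and Ass1 at 20.42. The fetal kidney thus had abundant transcripts of 4 of the 5 genes, while Ass1 was a low transcript. Its values went from 7 to 175, and differences between single libraries weigh more for it than for the others.

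**Figure D1:**
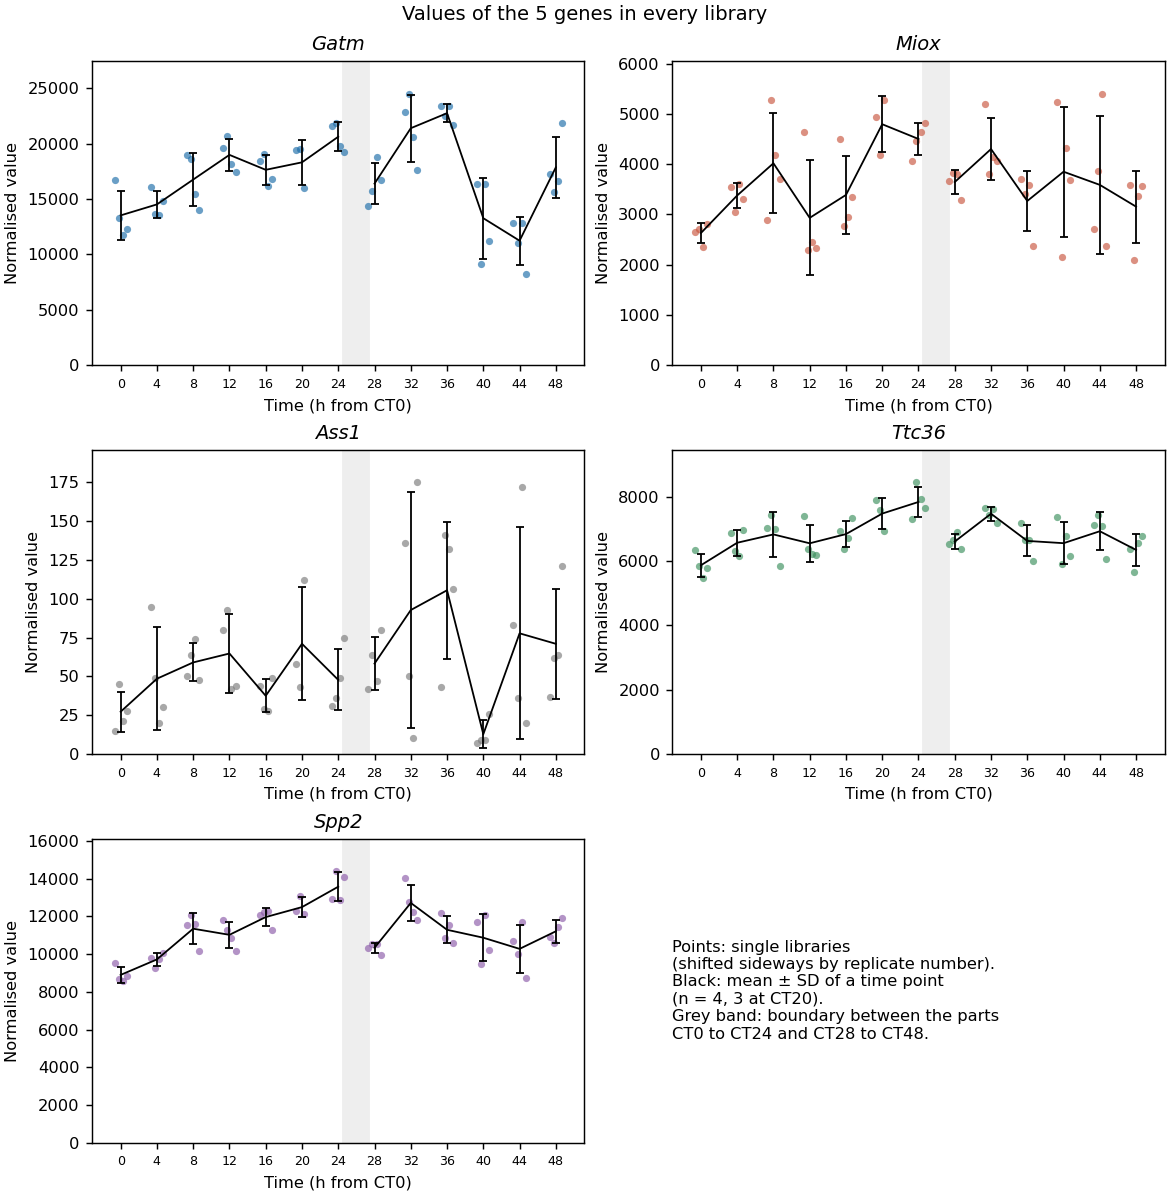
Normalised values of the 5 genes in each of the 51 libraries, by time in hours from CT0, 1 panel a gene. Points are libraries, the black line gives mean ± SD of each time point (n = 4, 3 at CT20), and a grey band parts CT0 to CT24 from CT28 to CT48. Gatm, Miox, Ttc36 and Spp2 are higher at CT24 than at CT0, Gatm falls between CT36 and CT40, and Ass1 scatters most. The early course of Miox is not steady, with a low mean at CT12 and its highest at CT20.

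The series falls into an early part (CT0 to CT24, 27 libraries) and a late part (CT28 to CT48, 24 libraries) that are alike in each gene's mean. The difference of the log2 means between the parts had a standard deviation of 0.0271 over the genes tested, and for Gatm it was -0.04. Late minus early came to 0.01 for Miox, -0.01 for Ttc36, -0.01 for Spp2 and 0.13 for Ass1. Levels of CT24 and CT28 were therefore not compared, and each contrast stays within a part. The spread between libraries of a time point was wider in the late part for each gene other than Ttc36. As standard deviations on the log2 scale, early and then late, it was 0.62 and 1.08 for Ass1, 0.28 and 0.38 for Miox, and 0.16 and 0.25 for Gatm. Spp2 had 0.076 and 0.12, and Ttc36 0.106 and 0.105.

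The labelled tissue carried the markers of the segment. All 22 genes of a proximal tubule list, which holds none of the 5 genes, were in the table and none was at 0 in every library. Their summed value was 232543 to 256903 at CT0 and 313491 to 343499 at CT24, then 230645 to 287348 at CT28 and 276473 to 337881 at CT48. In whole kidney, more tubule cells and more RNA per tubule cell cannot be told apart. All 10 liver markers were also present, Afp with a mean of 7265 and Alb with 211. The summed liver level went from 9695 to 10441 at CT0 to 11612 to 13891 at CT24, and from 8577 to 10109 at CT28 to 11242 to 13303 at CT48. Because Ttc36, Spp2 and Ass1 are also liver transcripts, this sum is given beside them, and its part in their values was not tested.

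Over the first day, from E18 to E19, 4 of the 5 genes rose. Gatm was 16729, 13247, 11771 and 12336 at CT0 and 21616, 21824, 19779 and 19241 at CT24, means of 13521 ± 2224 and 20615 ± 1297 (SD, n = 4 each). Each CT24 library was above each CT0 library. The difference was 0.62 ± 0.11 (SE) on the log2(value + 1) scale, with a limma adjusted p of 0.0001887 over all genes tested. Of all genes tested, 26.6% passed in this comparison, 14.3% higher and 12.2% lower. Miox had 2643, 2706, 2354 and 2816 at CT0 and 4064, 4466, 4649 and 4826 at CT24, a rise of 0.78 ± 0.20 (adjusted p = 0.005989). The groups of Miox did not overlap either.

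Spp2 had the smallest error of the 5. Its CT0 libraries held 9525, 8665, 8580 and 8823, and its CT24 libraries 12936, 14401, 12896 and 14067. The rise was 0.61 ± 0.05 (adjusted p = 8.974e-10), and the groups were clear of each other. Ttc36 went from 6352, 5852, 5470 and 5788 to 7304, 8441, 7930 and 7657, a rise of 0.42 ± 0.07 (adjusted p = 9.13e-05), again with no overlap. Groups that lie wholly above, as in these 4 genes, were found in 14.84% of all genes tested. Ass1, the arginine-forming enzyme, had 15, 45, 21 and 28 at CT0 and 31, 36, 49 and 75 at CT24. Its groups overlapped, and its difference of 0.82 ± 0.42 did not pass (adjusted p = 0.1654). In the 16 alternatives run, the omission of each CT0 and CT24 library included, the 4 calls stayed past the threshold, and Ass1 did not reach it in the 15 that tested it.

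Over the late part, from CT28 to CT48, none of the 5 passed in limma. This held at an adjusted p and at an unadjusted p under 0.05 (0 of 5 each), where 53.9% of all genes tested were called. Unlike CT0 and CT24, CT28 and CT48 differ in clock time and lie less than 24 h apart. The late contrast is therefore not a like repeat of the first-day contrast, here or in the lists below. Gatm was 14362, 15709, 18779 and 16696 at CT28 and 17296, 15659, 16614 and 21851 at CT48, a difference of 0.12 ± 0.17 (adjusted p = 0.5894). Miox was 3661, 3820, 3805 and 3292, then 3592, 2091, 3370 and 3567, a difference of -0.24 ± 0.27 (adjusted p = 0.4698). The groups of both genes overlapped. Ttc36 differed by -0.06 ± 0.07 (adjusted p = 0.4736) and Ass1 by 0.20 ± 0.71 (adjusted p = 0.8308), both with overlapping groups. Spp2 had 10342, 10534, 10513 and 9955 at CT28 and 10882, 10570, 11455 and 11936 at CT48. These groups did not overlap, though the difference of 0.12 ± 0.08 did not pass (adjusted p = 0.2033), and 23.03% of all genes tested lay wholly above in this comparison. With an error of 0.71, a change of Ass1 of the size seen over the first day was not detectable here.

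A line was also fitted through all time points of each part. Per 24 h, Gatm rose by 0.57 ± 0.09 in the early part (adjusted p = 4.529e-05), Miox by 0.64 ± 0.19 (0.01617), Ttc36 by 0.35 ± 0.06 (4.71e-05) and Spp2 by 0.57 ± 0.05 (1.525e-10). The slope of Ass1, 0.63 ± 0.38, did not pass (adjusted p = 0.2499). Early slopes were called for 22.9% of genes tested, and an upward slope was called for 12.9% of genes tested. The call of Miox was lost without replicate 1 of each time point (adjusted p = 0.09011), without replicate 3 (0.08095) and with time-point means in place of libraries (0.2191). In the late part 59.3% of genes tested were called and none of the 5, with 0 of 5 also at an unadjusted p under 0.05. The late slopes were -0.52 ± 0.30 for Gatm, -0.34 ± 0.25 for Miox, -0.38 ± 0.96 for Ass1, -0.11 ± 0.08 for Ttc36 and -0.07 ± 0.10 for Spp2.

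The late slope was lower than the early one in the test of the difference itself for 4 genes. It differed by -1.09 ± 0.28 for Gatm (adjusted p = 0.001097), -0.98 ± 0.32 for Miox (0.007918), -0.46 ± 0.10 for Ttc36 (0.0001016) and -0.64 ± 0.11 for Spp2 (1.503e-06). Ass1 differed by -1.01 ± 0.97 (0.3896). In this comparison 55.1% of all genes tested were called, 29.8% in the same downward direction, so a difference between the parts is common in the table. Without CT28 and CT32 the calls of Miox (adjusted p = 0.2881) and Ttc36 (0.05599) were lost, and those of Gatm and Spp2 held. With the time-point means in place of the libraries, the call of Gatm was lost (0.09537). The lines were fitted without a 24 h wave, and CT28 to CT48 covers less of a cycle than CT0 to CT24. The late means of Gatm rose to CT36, fell to CT44 and were higher again at CT48, so a line does not follow its course. The part of a wave in these slope differences was not tested.

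**Figure D2:**
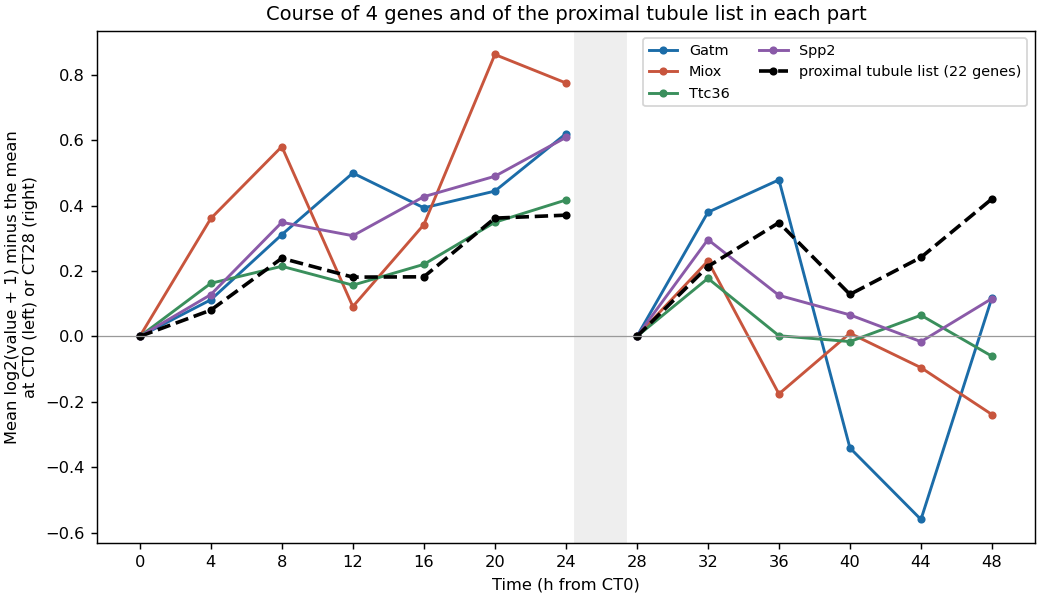
Time-point means of log2(value + 1), minus the mean at CT0 for the early part and at CT28 for the late part, by time in hours. Coloured lines are Gatm, Miox, Ttc36 and Spp2, the dashed line is the mean of the 22 proximal tubule markers, no errors are drawn, and Ass1 is left out for its wide spread. The 4 genes end above 0 at CT24, by 0.42 to 0.78, and Gatm drops from CT36 to CT40.

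Among the steps between neighbouring time points, 1 passed the test for Gatm, a fall from CT36 to CT40. At CT36 it was 23394, 22530, 23373 and 21671, a mean of 22742 ± 820 (SD, n = 4) and the highest of the late part. At CT40 it was 16324, 9177, 16344 and 11220, a mean of 13266 ± 3639. Each CT40 library lay below each CT36 library. The fall was -0.82 ± 0.17 (adjusted p = 0.003253), in a step where 17.7% of genes tested were called and 9.27% were lower. Gatm stayed low at CT44, with 12806, 11071, 12860 and 8213, and stood at 17296, 15659, 16614 and 21851 at CT48. The CT44 and CT48 groups did not overlap, and 3.11% of all genes tested lay wholly above in this step. The difference of 0.68 ± 0.17 did not pass (adjusted p = 0.1088), while it did with all 51 libraries in 1 fit (0.003934).

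Ass1 fell in the same step. It lay between 43 and 141 at CT36, with a median of 119, and 7, 9, 9 and 26 at CT40, the lowest mean of the late part, with no overlap. The difference was -3.00 ± 0.71 (adjusted p = 0.005841). Groups wholly below were found in 9.78% of all genes tested. At CT44 Ass1 was 83, 36, 172 and 20, a difference of 2.26 from CT40 that did not pass (adjusted p = 0.1046) but did without replicate 4 of each time point (0.03731). Miox, Ttc36 and Spp2 did not pass between CT36 and CT40, with differences of 0.19 ± 0.27, -0.02 ± 0.07 and -0.06 ± 0.08. Both calls held without each single library of CT36 and CT40, a check chosen after the values had been seen. Both were lost when replicate 2 of every late time point was left out, with -0.66 for Gatm (adjusted p = 0.05649) and -2.73 for Ass1 (0.1155).

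**Figure D3:**
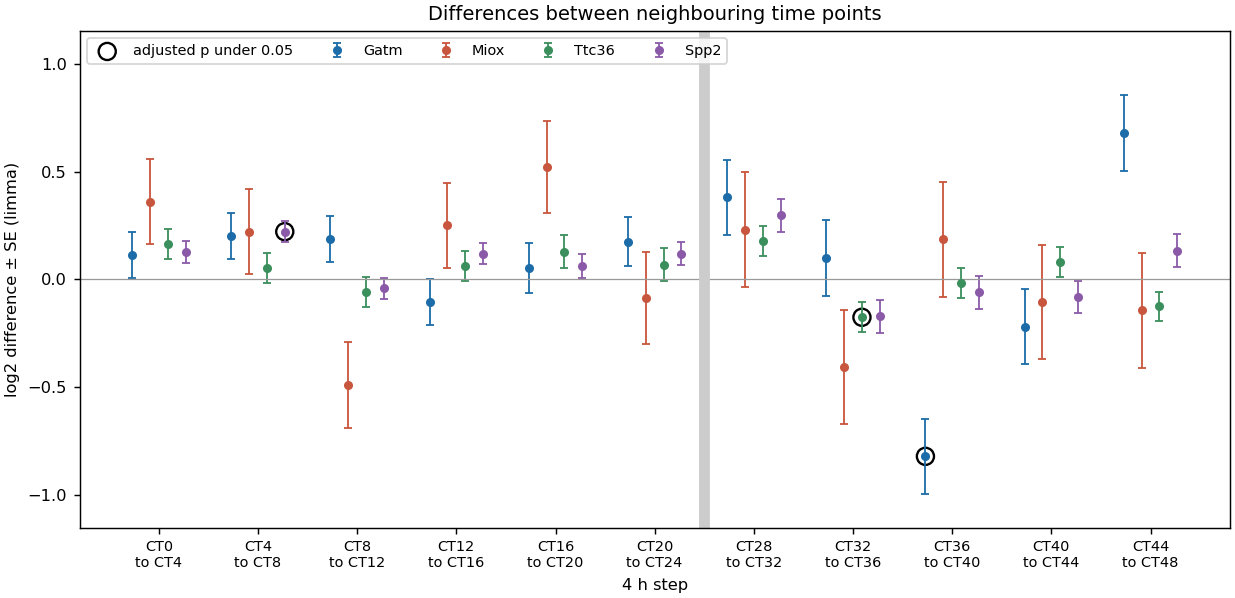
Differences between neighbouring time points on the log2(value + 1) scale with their standard errors, for Gatm, Miox, Ttc36 and Spp2. Ringed points passed an adjusted p of 0.05, and Ass1 is left out for its wide errors. The Gatm step from CT36 to CT40, -0.82, is the lowest point drawn.

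The fall of Gatm was also measured against Miox, Ttc36 and Spp2 in the same libraries, a comparison chosen after the values had been seen. These 3 genes had not passed in this step. Ass1, which fell by more (-3.00 against -0.82 for Gatm), was left out. Relative to Miox the fall of Gatm came to -1.01, to Ttc36 -0.80 and to Spp2 -0.76 (log2). In an exact two-sided permutation test of 4 against 4 libraries each had p = 0.0286, the smallest such a design allows, and 0.0286 after adjustment over the 3. All 3 use the same Gatm values in a step chosen for its fall, so they add no separate support for that fall. The ratio of the Gatm value to the Spp2 value was 1.92 to 2.07 in the 4 libraries of CT36 and 0.968 to 1.40 at CT40. It was 0.943 to 1.20 at CT44 and 1.45 to 1.83 at CT48. Among the early time points the ratio averaged 1.72 at CT12 and 1.46 to 1.52 at the others. CT12 is 24 h before CT36, and from CT12 to CT16 Gatm differed by -0.11 ± 0.11 (adjusted p = 0.6515). The difference between the days in this step was not tested.

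**Figure D4:**
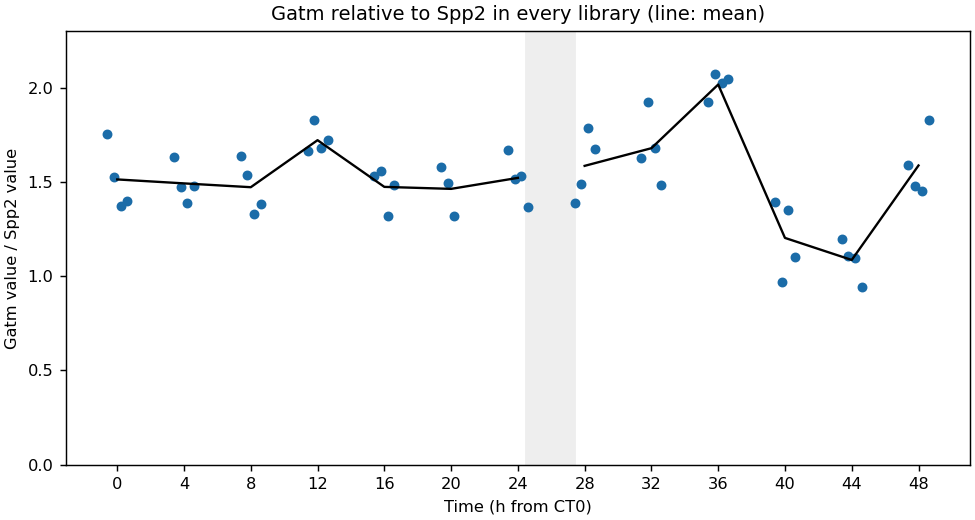
Ratio of the normalised Gatm value to the Spp2 value in each library, by time in hours. Points are libraries, black lines join the means of each part, and a grey band parts them. CT36 holds 1.92 to 2.07, and no library of CT40 or CT44 passes 1.40.

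Other measures of this step are given as well. Of all genes tested 17.7% were called in it, 9.27% lower, and the counts that follow are to be read beside these shares. The summed proximal tubule markers were 281442 to 329541 at CT36 and 238214 to 295900 at CT40, and the 2 CT40 libraries lowest in that sum, replicates 2 and 4, were also the 2 lowest in Gatm. Of the 22 markers 3 fell and 1 rose, near the share of all genes called, with a median of -0.21 against 0.01 over all genes tested. Those that fell were the lactate carrier Slc5a12 (-1.07), Pdzk1 (-0.52) and the endocytic receptor Lrp2 (-0.47), and Cyp7b1 rose by 0.35 (named after their values were seen). Relative to the mean of the list in each library, Gatm came to -0.60 and Ass1 to -2.78 in this step, each with an exact two-sided permutation p = 0.0286 and 0.0715 after adjustment over the 5 genes, a comparison also chosen after the values had been seen. Summed loop and distal tubule markers were 45831 to 51452 at CT36 and 35181 to 42032 at CT40, with 3 of 6 lower and none higher. Summed cell cycle markers were 32802 to 34789 and then 37535 to 43290, with 6 of 8 higher. Podocyte markers had 3 of 6 lower, collecting duct markers 2 of 6 and nephron progenitor markers 1 of 6, with none higher. Stroma, endothelium, macrophage, erythroid, liver and adrenal markers had no call. The part of these markers in the values of Gatm or Ass1 was not tested. Besides Gatm and Ass1, 2 other steps passed. Spp2 rose from 9812, 9254, 9748 and 10064 at CT4 to 11555, 12090, 11591 and 10157 at CT8, by 0.22 ± 0.05 (adjusted p = 0.01727), where 1.61% of genes tested were called and 0.589% were higher. This call was lost without replicate 1, 2 or 3, at adjusted p from 0.07421 to 0.2549, and with all 51 libraries in 1 fit (0.5032). Ttc36 fell from 7641, 7431, 7626 and 7170 at CT32 to 7186, 6640, 6655 and 6008 at CT36, by -0.18 ± 0.07 (adjusted p = 0.04606), where 34.8% were called and 19.1% were lower. It was lost without replicate 2, 3 or 4 (0.07236 to 0.1821), without a filter on low values (0.05232) and with plain moderation (0.07676). It was also lost without CT12 replicate 4 and CT36 replicate 3 (0.07587), the 2 libraries whose identifiers are numbered unlike the others. In the other 8 steps limma called none of the 5 genes, and 11 of 40 differences there had an unadjusted p under 0.05. The share of all genes at that unadjusted threshold was not computed, so this count is not read as an excess. The shares that follow are of calls at an adjusted p. The share of all genes called was 0.319% from CT0 to CT4, 4.01% from CT8 to CT12, 1.21% from CT12 to CT16 and 12.1% from CT16 to CT20. It was 1.57% from CT20 to CT24, 0.118% from CT28 to CT32, 1.35% from CT40 to CT44 and 0.215% from CT44 to CT48.

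In each part the time points were also put in order of their means. For Gatm the early order from low to high was CT0, CT4, CT8, CT16, CT20, CT12 and CT24, and CT24 had 1.52 times the mean of CT0. None of the 6 neighbouring pairs in that order was free of overlap. Spp2 had CT0, CT4, CT12, CT8, CT16, CT20 and CT24, with a span of 1.53 times, and 1 of its 6 pairs did not overlap. Ttc36 spanned 1.34 times and Miox 1.82 times, Miox being highest at CT20, and neither had a pair without overlap. In the late part Gatm went from CT44 over CT40, CT28, CT48 and CT32 to CT36, a span of 2.02 times, where Spp2 spanned 1.24, Ttc36 1.18 and Miox 1.36 times. Ass1 spanned 2.61 times early and 8.27 times late. Among its late neighbours, CT40 and CT28 did not overlap. The pairs compared here follow from sorting time points by mean, and the share of all genes without overlap was not computed for them.

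The study's title names the circadian clock, and a 24 h wave was fitted to all 51 libraries together with a line and a step between the parts. It was called for Gatm, whose amplitude was 0.37 ± 0.07 on the log2 scale (adjusted p = 0.00329) and whose fitted peak fell at 8.05 h. It was also called for Spp2, whose amplitude was 0.15 ± 0.03 (0.006831) and whose peak fell at 8.25 h. Of all genes tested, 12.3% were called. Ass1 (0.76 ± 0.26, adjusted p = 0.09854), Miox (0.16, 0.4411) and Ttc36 (0.08, 0.1904) did not pass. Fitted to the 13 time-point means, neither Gatm nor Spp2 passed (adjusted p = 0.923 for both), nor did any gene. The call of Spp2 was also lost without replicate 2 (0.06263) or replicate 3 (0.05167). In the authors' deposited table of rhythm tests, the combined q-value was 0.00428 for Gatm, with a period of 20.2 h and a phase of 10.8 h, and 41.3% of genes were under 0.05. The same table gives 0.323 for Ass1 and 1 for Miox, Ttc36 and Spp2. The series holds 2 cycles, and the late one includes the fall of Gatm at CT40.

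The 5 genes were then set against the segment they come from. From CT0 to CT24, 19 of the 22 proximal tubule markers rose and none fell, with a median difference of 0.37 against 0.0011 over all genes tested. From CT28 to CT48, 15 rose and 1 fell, with a median of 0.49 against -0.01. The one that fell was Slc7a13, a cystine and aspartate carrier of the late proximal tubule, at -1.14 (named after its values were seen). As the mean of log2 values in each library, the list differed by 0.37 on the first day and by 0.42 in the late part. Relative to this mean, Miox came to 0.40 and Spp2 to 0.24 on the first day, each with p = 0.0286 in an exact two-sided permutation test. Gatm came to 0.25 (p = 0.1143), Ttc36 to 0.05 (p = 0.1429) and Ass1 to 0.44 (p = 0.4), by the same exact test.

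For CT48 against CT28, the values relative to the list were below 0 for each of the 5 genes. Miox came to -0.66, Ttc36 to -0.48 and Spp2 to -0.30, each with an exact permutation p = 0.0286. Gatm came to -0.30 (p = 0.0857) and Ass1 to -0.22 (p = 0.6286), by the same exact test. The smallest p this design allows is 0.0286, and adjusted over the 10 comparisons it becomes 0.0571, so 0 of 10 passed and 5 of 10 had an unadjusted p under 0.05. Whether the gap to the list differed between the days was not tested.

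**Figure D5:**
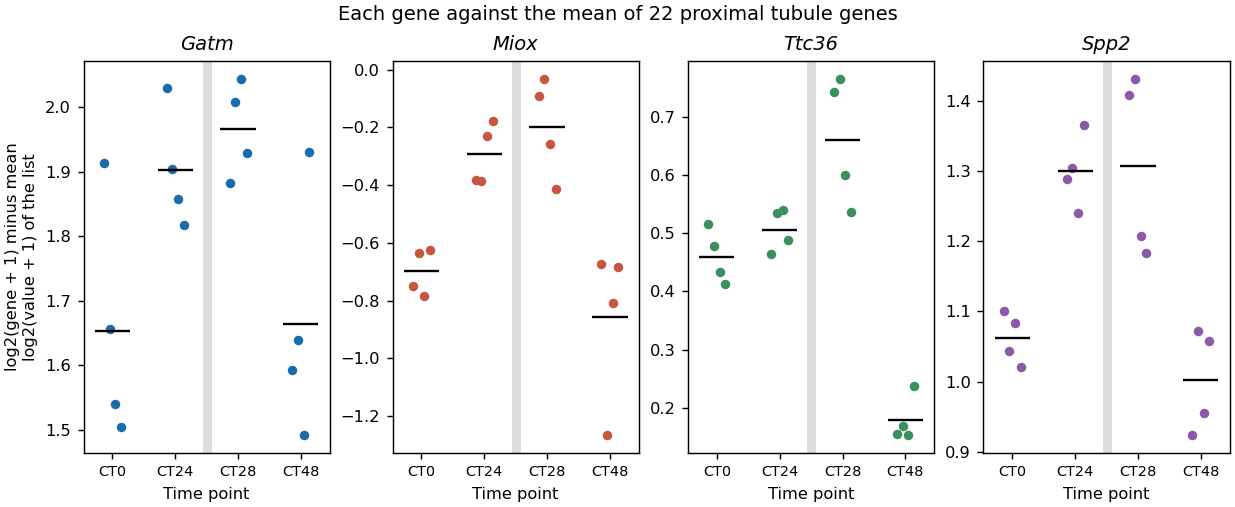
For Gatm, Miox, Ttc36 and Spp2, log2(value + 1) minus the mean over the 22 proximal tubule markers in the same library, at CT0, CT24, CT28 and CT48. Points are libraries (4 a group), black lines are group means, Ass1 is left out, and the axis range differs between panels. Miox and Spp2 lie higher at CT24 than at CT0, and Miox, Ttc36 and Spp2 lie lower at CT48 than at CT28.

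Among other genes of the creatine route, called differences were small on the first day and larger later, in opposite directions. Of 5 tested in that list, 3 rose and none fell from CT0 to CT24: Ckb by 0.19, Slc6a8 by 0.16 and Ckmt1 by 0.16, the median of the list being 0.16. Ckb and Ckmt1 are creatine kinases and Slc6a8 is the creatine transporter. From CT28 to CT48, 2 of 5 were called, 1 higher and 1 lower, and the list's median was 0.03. Slc6a8 rose by 0.86 and Gamt, the enzyme that methylates the product of Gatm, fell by 0.81. Gatm itself differed by 0.12 there. Counts of this and the following lists are to be read beside the 26.6% and 53.9% of all genes tested that were called.

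Around Miox, 6 of 11 genes of inositol and the glucuronate-xylulose pathway rose on the first day and none fell, with a median of 0.22. The largest were Cryl1 (gulonate dehydrogenase) at 0.55, Sord (sorbitol dehydrogenase) at 0.50 and Dcxr (L-xylulose reductase) at 0.37, all steps after Miox in the route. From CT28 to CT48, 5 rose and none fell, with a median of 0.17: Slc5a3, the sodium inositol carrier, by 0.91, Sord by 0.82 and Cryl1 by 0.72. Miox did not pass there.

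Around Ass1, 9 of 21 genes of arginine, the urea cycle and polyamines rose and 3 fell on the first day, and 9 rose and 7 fell in the late part. The medians were 0.12 and 0.01. On the first day the largest were transporters of basic amino acids in the tubule, Slc3a1 at 0.59, Slc7a9 at 0.57 and Slc7a7 at 0.55. Later, Arg2, the mitochondrial arginase, rose by 1.47 and Slc7a7 by 1.18, while Ddah2, which breaks down methylated arginine, fell by 0.71. Asl, the enzyme after Ass1 and named here for that role after its values were seen, rose by 0.35 and then by 0.60. Ass1 passed in neither comparison.

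Glycine and methyl donor genes make or use up the substrates of creatine synthesis. On the first day 4 of 12 were higher and 1 lower, with a median of 0.07. Gnmt (glycine N-methyltransferase) rose by 0.52, Dmgdh by 0.35 and Bhmt2 by 0.21. Between CT28 and CT48, 2 rose and 4 fell, with a median of -0.08. Gldc, a subunit of the glycine cleavage system, rose by 1.86 while Amt, another subunit, fell by 0.70, and Shmt1 rose by 0.34.

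Genes of tyrosine breakdown were listed because Ttc36 has been linked to that pathway in liver. Of 7 tested, 6 rose and none fell on the first day, with a median of 0.48. Hgd (homogentisate dioxygenase) rose by 0.58 and Fah (fumarylacetoacetate hydrolase) by 0.48. In the late part 4 rose and 3 fell, with a median of 0.23. Hpd, the dioxygenase of hydroxyphenylpyruvate, rose by 3.09 and Fah by 0.49, while Ttc36 differed by -0.06.

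Beside Spp2, 7 of 11 genes of the cystatin superfamily and other secreted products rose and none fell on the first day, with a median of 0.67. Kap, the androgen-regulated kidney protein, rose by 1.19, Agt (angiotensinogen) by 1.00 and Kng1 (kininogen, with the near copy Kng2) by 0.72. From CT28 to CT48, 5 rose and 1 fell, with a median of 0.66: Agt by 2.28, Rbp4 (the retinol carrier) by 1.25 and Kap by 1.05. Of 10 liver markers 3 rose in each comparison, none fell and 7 did not pass. On the first day 14.3% of all genes tested were called higher, and in the late part 53.9% were called in either direction. The median of the liver list was 0.52 against 0.0011 over all genes tested on the first day, and 0.45 against -0.01 in the late part. The part of the liver markers in the values of Spp2 was not tested.

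The genes most like each member were ranked by Pearson's r over the 51 libraries after centring each gene on its mean in each part, as a description across libraries that share the time course. Gatm was most like Pdzk1, a scaffold of the brush border in the proximal tubule list, with r = 0.927, then Cyp2j5 (0.889), Galm (0.861), Nnt (0.84) and Ptgr2 (0.828). Miox was most like Khk, the fructose kinase, with 0.842, then Agxt2 (0.813), Cmbl (0.75), Hadh (0.725) and Fmo1 (0.724). Spp2 was most like Tmem27, a partner of amino acid carriers, with 0.89, then Defb19 (0.885), Slc22a29 (0.871), Cmbl (0.862) and Cyp2j5 (0.828). Ttc36 was most like Fmo1 (0.813), Cfi (0.801), Prdx5 (0.796), Tst (0.79) and Cbr1 (0.786). Ass1 had weaker likeness, with Aifm1 at 0.658, Mapkap1 at 0.641, Fam151a at 0.639, Rsu1 at 0.63 and Dlg2 at 0.628, and its r with Mapkap1 was 0.111 within the early part.

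Among the 5 genes themselves, r was 0.793 for Ttc36 and Spp2, 0.755 for Miox and Ttc36, 0.72 for Gatm and Spp2 and 0.639 for Miox and Spp2. It was 0.512 for Gatm and Ttc36 and 0.335 for Gatm and Miox, and for Ass1 it ran from 0.17 with Ttc36 to 0.38 with Gatm. Libraries of the same time point also varied together. With time-point means removed, r was 0.785 for Gatm and Spp2, 0.71 for Ttc36 and Spp2 and 0.681 for Gatm and Ttc36, and against the mean of the proximal tubule list it was 0.71 for Gatm, 0.697 for Ttc36, 0.681 for Spp2, 0.634 for Miox and 0.192 for Ass1. Gatm and Miox stood at 0.028 within early time points and 0.66 within late ones. These values share the libraries and their normalisation.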

How the data were processed

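The submitters' processing notes name bcl2fastq, STAR 2.5.2b, featureCounts 1.5.0-p3 and the mm10 build, and no source used here names the normalisation. The expression table the authors deposited is named for counts but holds a score, normalised values rounded to whole numbers, judged by their library totals of 34226024 to 35711911, and no pair of libraries is identical. For 617 low genes (mean 1 to 3), variance over mean within a time point was 1.109 in the early part and 4.211 in the late part. Depth per library is unknown, so no counting interval was computed. The second deposited table lists q-values and p-values of rhythm tests, with periods and phases in hours, per the file headers.

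The log2(value + 1) data were modelled by limma 3.58.1 (R 4.3.3), with trend and robust moderation, over 14426 genes with a mean of at least 10. This scale understates changes of low genes. The threshold was a Benjamini-Hochberg adjusted p of 0.05 over all genes tested. Contrasts and slopes used the libraries of their part; slope difference and 24 h wave used all 51. Exact permutation tests used scipy 1.17.1. Each model was tested on simulated data, where unchanged genes took up more of the calls than the threshold allows for the slope difference, CT48 against CT28 and CT40 against CT36. Alternatives were another pseudocount, other filters, quantile scaling, plain moderation, all libraries in 1 fit, a replicate block, time-point means, a variance for each part, and omitted replicates, libraries or time points.

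The members, lists and comparisons were chosen with earlier results of these data known. Named genes are the members, the 5 genes most like each, and of each pathway list the called members with the 3 largest differences in CT24 against CT0 and CT48 against CT28. A gene that this rule selects is not reported here. Of 16099 symbols, 15979 were found in GENCODE M21. Of the pathway lists, genes below the filter or not matched were not tested. Among the marker lists other than proximal tubule and liver, podocyte markers had 4 higher and 1 lower of 6 on the first day. In the late part they had 2 and 2. Loop and distal tubule markers had 6 and 0, then 3 and 3, of 6, and collecting duct markers 4 and 0, then 4 and 2, of 6. Nephron progenitor markers had 0 and 5, then 1 and 4, of 6, cell cycle 0 and 8 in both, of 8, and stroma 0 and 2, then 3 and 1, of 6. Endothelium had 3 and 0, then 5 and 1, of 6, macrophage 3 and 0, then 4 and 0, of 5, erythroid 1 and 0, then 2 and 1, of 5, and adrenal 0 and 0, then 2 and 0, of 3.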

Additional observations from a re-analysis of the deposited data

Results flagged for a closer look

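In 4 of the 60 groups of 4 libraries tested (5 genes at 12 time points), 1 library stood apart from the other 3 of its time point. Chance flags about 1 in 20 such groups. At CT12, Miox was 4645 in replicate 1, against 2290, 2334 and 2460 in the others, and Ttc36 was 7409 in the same library, against 6179, 6220 and 6385. At CT48, Miox was 2091 in replicate 2, against 3370, 3567 and 3592. At CT40, Ass1 was 26 in replicate 4, against 7, 9 and 9. Without replicate 1 of each time point, Miox passed from CT8 to CT12 at -0.88 (adjusted p = 0.002234) and from CT16 to CT20 at 0.64 (0.01512), where it had differed by -0.49 (0.1568) and 0.52 (0.1136).

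The slope per 24 h differed between the early and late parts, late minus early, by -1.09 for Gatm, -0.98 for Miox, -0.46 for Ttc36 and -0.64 for Spp2. Each was tested as a difference in 1 fit of all libraries without a 24 h wave, where 55.1% of genes tested passed.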

How the results depend on the processing

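Of 1298 values of the 5 genes under the alternatives, 1267 kept their side of the threshold, 22 lost a call and 9 gained one. Among the 1267, 24 values without a call in either fit changed sign, and no value with a call did. The cause was not tested for any. With all 51 libraries in 1 fit, called genes came to 1443 in place of 3832 for CT24 against CT0, 4617 in place of 2559 for CT40 against CT36 and 736 in place of 3310 for the early slope. In that fit called members came to 0 in place of 1 for early steps, 7 in place of 3 for late steps and 1 in place of 0 for the late slope (Gatm, -0.52, adjusted p = 0.03371). With time-point means, which leave fewer values, the rhythm had 0 genes in place of 1773 and 0 members in place of 2, the early slope 768 genes, the late slope 5438 in place of 8561 and the slope difference 5142 in place of 7948; the slope difference of Gatm had an adjusted p of 0.09537 and the early slope of Miox 0.2191. With a variance for each part the rhythm had 2921 genes. Without CT28 and CT32 the late slope had 1074 genes and the slope difference 2909 genes and 2 members. Leaving out a replicate number at a time gave 224 to 724 rhythm genes, 1070 to 1810 genes for CT40 against CT36, 1599 to 2880 for the early slope, 1 to 2 members for the rhythm, 0 to 2 for early steps and 0 to 3 for late steps. Leaving out a single library of CT36 or CT40, chosen after seeing the data, gave 1760 to 2762 genes for CT40 against CT36 and 2 to 4 members for late steps. A filter at a mean of 100 removed Ass1.

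Replicate numbers did not pair the samples: same-numbered libraries of CT0 and CT24 had correlations from -0.097 to 0.163, and those of CT28 and CT48 from -0.075 to 0.052, and 2 of 8 correlated best with their own number. With a replicate block, CT24 against CT0 had 4304 called genes and 4 members, CT48 against CT28 had 7878 and 0, and Spp2 passed from CT32 to CT36 at -0.17 (adjusted p = 0.0401). Depth is unknown, which limits what can be said of Ass1.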
